A study of Caenorhabditis elegans with 9 samples.

Results

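The cathepsin B-like cysteine protease genes *cpr-1*, *cpr-2*, *cpr-3*, *cpr-4*, *cpr-5* and *cpr-6* of the nematode *Caenorhabditis elegans* were followed across the 9 libraries of an RNA-Seq series. The 6 genes were taken by their WormBase symbols, matched to the gene IDs of the deposited tables, and all 6 were found among the 20541 genes listed. Whole worms of 3 groups were sequenced, with 3 libraries in each. The first group (WT on PA14) was wild type N2 exposed to the pathogenic bacterium *Pseudomonas aeruginosa* PA14. The second (*egl-44* on OP50) carried *egl-44(mt2247)* and was fed the laboratory food *Escherichia coli* OP50, and the third (WT on OP50) was wild type N2 on the same food. All worms are described as raised at 20°C on OP50, placed on the assay plates at 25°C as young adults and collected 24 h later. The *egl-44* gene encodes the TEAD transcription factor of the worm, which works with YAP-1, and the series asked how worms respond when *P. aeruginosa* damages the intestinal barrier. No *egl-44* library on PA14 was analysed here, and both comparisons below share the WT on OP50 libraries.

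Cathepsin B enzymes are papain-family cysteine proteases that are made as inactive precursors, pass through the secretory pathway and act in lysosomes or, once secreted, outside the cell. In *C. elegans* the intestine is a single layer of large cells that digests ingested bacteria, and cathepsin B-like proteases are among the enzymes it makes for lysosomal and luminal protein breakdown. Cystatins are small proteins that block such enzymes, while the other proteases of the compartment include cathepsin L, F and Z relatives and the cathepsin D-like aspartic proteases.

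In the genome build WBcel235, 5 of the 6 genes lie on chromosome V and 1 on the X chromosome, and all 6 are annotated as protein-coding. On chromosome V, *cpr-5* (WBGene00000785) lies at 1132598 to 1134036 on the minus strand and *cpr-4* (WBGene00000784) at 6614674 to 6615851 on the plus strand. The gene *cpr-1* (WBGene00000781) lies at 11975551 to 11976756 on the plus strand. Both *cpr-3* (WBGene00000783), at 15296834 to 15298700, and *cpr-2* (WBGene00000782), at 16532936 to 16534100, are on the minus strand. On the X chromosome, *cpr-6* (WBGene00000786) spans 6607207 to 6609045 on the plus strand. The annotation gave *cpr-6* 7 introns, against 1 intron in *cpr-4*, 3 in *cpr-3* and 2 each in *cpr-1*, *cpr-2* and *cpr-5*. A piRNA gene on the opposite strand, *21ur-14330*, overlaps *cpr-4* and is not in the tables.

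Expression is given as FPKM, the fragments of a gene scaled to its length and to the reads of its library, so that levels can be set side by side between genes. The libraries held 14084626 to 16320443 reads in WT on PA14, 13638251 to 17831389 in *egl-44* on OP50 and 14898657 to 17293200 in WT on OP50, recovered from the steps of the FPKM values. At that depth 1 read on a gene of 1 kb was worth 0.0561 to 0.0733 FPKM, so counting error limited *cpr-2* and none of the other members. Replicate 2 of WT on PA14 stood apart, with r = 0.927 and 0.870 to the other libraries of its group (log2 FPKM across genes, which are not independent replicates), against 0.964 between those. Its 7 intestine markers summed to 511 FPKM, against 1252 and 1219 in the other WT on PA14 libraries and 1229 to 1506 in WT on OP50. The gap was widest for *act-5*, with 123 FPKM against 711 and 624 in the other WT on PA14 libraries. The markers *elt-7* and *ges-1* were instead highest of the group in replicate 2. The *egl-44* libraries are labelled as adult worms, but 8 of 8 oocyte and eggshell markers and 5 of 5 sperm markers were lower in them, and the adult cuticle collagen *col-19* had 3.64, 4.47 and 5.54 FPKM, against 1475, 1855 and 2221 FPKM in WT on OP50. That gene is 1 of 6 epidermis markers, of which the cuticle collagens *dpy-7*, *rol-6* and *sqt-3* were called higher in *egl-44* on OP50 (log2 fold changes 4.48, 3.31 and 2.83) and *bli-1* and *bli-2* were not called. The summed oocyte and eggshell markers came to 14.1 to 37.3 FPKM in *egl-44* on OP50, against 892 to 2204 in WT on OP50. Genotype, developmental stage and these differences cannot be told apart in any comparison of *egl-44* with WT. The sources used here do not say whether the *egl-44* and WT libraries were grown or sequenced together. Genotype and a possible batch therefore cannot be told apart either. The *egl-44* transcript itself was 32.5, 37.8 and 28.2 FPKM in *egl-44* on OP50, against 16.1, 21.5 and 15.97 in WT on OP50, which does not check the mutation, since the labels do not say what the allele changes in the RNA.

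The members differed widely in level, and their order was not the same in each group. In WT worms on PA14, *cpr-1* (338 ± 248 FPKM, SD, n = 3 here and below), *cpr-6* (293 ± 113.2) and *cpr-4* (231 ± 72.5) had overlapping ranges, and a different one of these genes led in each library. The gene *cpr-3* (73.9 ± 26.6 FPKM) stood above *cpr-5* (36.5 ± 5.19) in 3 of 3 libraries with ranges apart. The gene *cpr-2* was last with 0.225 ± 0.223 FPKM. In *egl-44* on OP50, *cpr-1* led with 1600 ± 326 FPKM, followed by *cpr-4* (939 ± 239), *cpr-5* (788 ± 168) and *cpr-6* (575 ± 88.3), where the ranges of *cpr-4* and *cpr-5* overlapped, as did those of *cpr-5* and *cpr-6*. Both *cpr-3* (36.7 ± 7.02) and *cpr-2* (0.528 ± 0.234) came last.

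In WT worms on OP50, the usual food, the members ranged over more than 3 orders of magnitude and *cpr-3* stood below *cpr-5*, the opposite of their order on PA14. The most abundant was *cpr-1*, a gut cysteine protease gene, with 672 ± 148 FPKM (SD, n = 3), and its range lay above that of every other member. It was followed by *cpr-6* with 357 ± 127, *cpr-4* with 240 ± 88.5 and *cpr-5* with 225 ± 62.6 FPKM. The ranges of *cpr-6* and *cpr-4* overlapped, as did those of *cpr-4* and *cpr-5*, although *cpr-6* was above *cpr-4* in all 3 libraries. Next came *cpr-3* with 20.5 ± 5.06 FPKM, apart from the genes above and below it. At the bottom *cpr-2* had 0.105 ± 0.0798 FPKM, which rested on 5 reads over the 3 libraries.

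**Figure D1:**
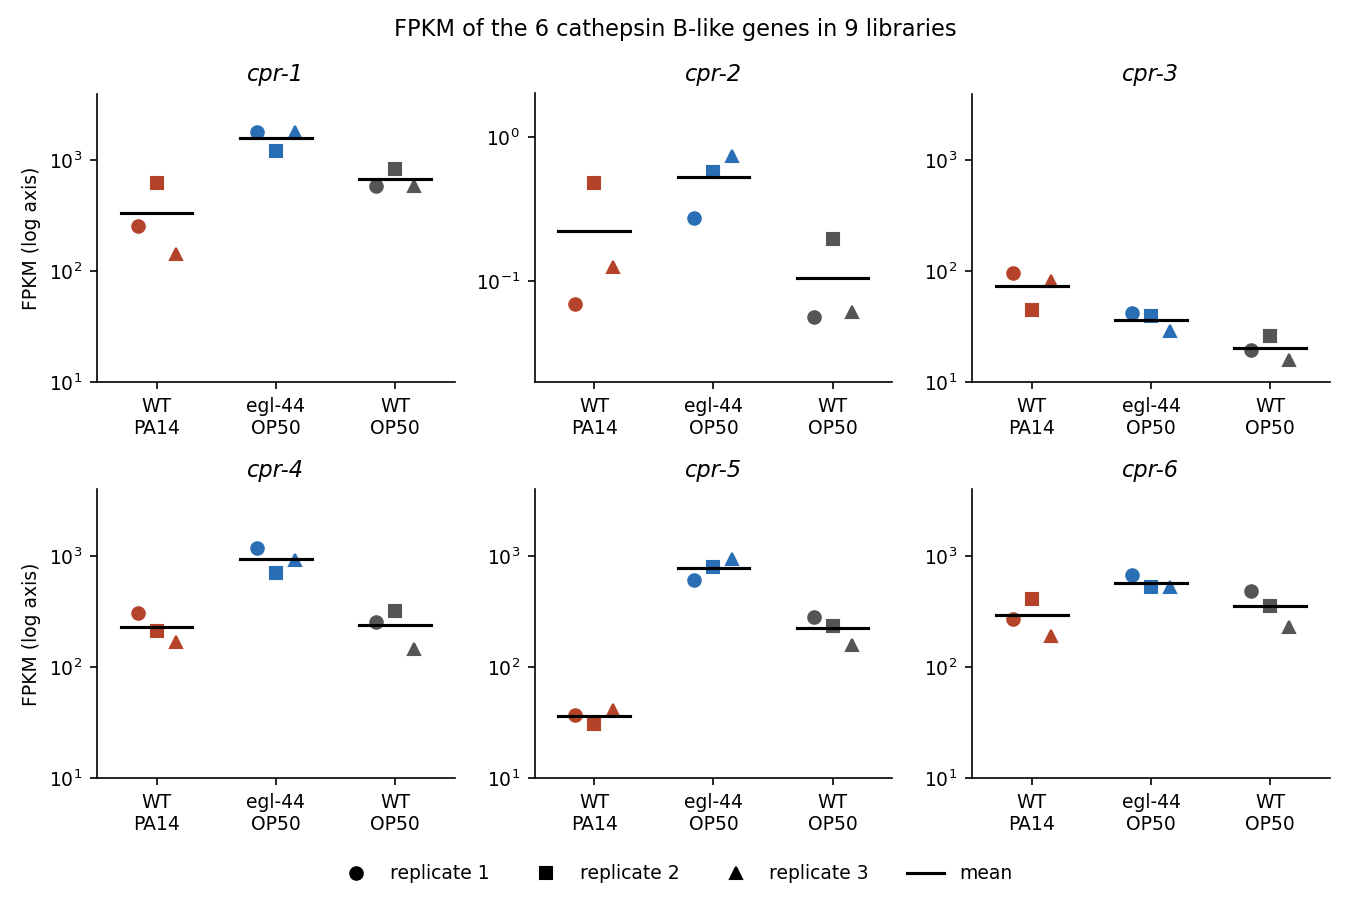
FPKM (log axis) of each cathepsin B-like gene in WT on PA14, *egl-44* on OP50 and WT on OP50, with 1 point per library and a line at the mean of 3 libraries. The *cpr-5* points of WT on PA14 lie at 31.0 to 41.4 FPKM, below all others of that gene, whereas *cpr-3* is highest in WT on PA14, and the axis of *cpr-2* covers far lower values than the rest.

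Summed over the family, the 6 genes took 0.115%, 0.154% and 0.0748% of the reads in WT on PA14. They took 0.495%, 0.380% and 0.483% in *egl-44* on OP50, against 0.191%, 0.205% and 0.131% in WT on OP50. The *egl-44* shares were all above those of the WT groups, and the WT groups overlapped. Wilson 95% intervals, which cover counting error only, were narrow, the widest being 0.480% to 0.486% for replicate 3 of *egl-44* on OP50. On the FPKM scale the family summed to 973 ± 347 in WT on PA14, 3939 ± 557 in *egl-44* on OP50 and 1515 ± 338 in WT on OP50 (SD, n = 3 each).

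**Figure D2:**
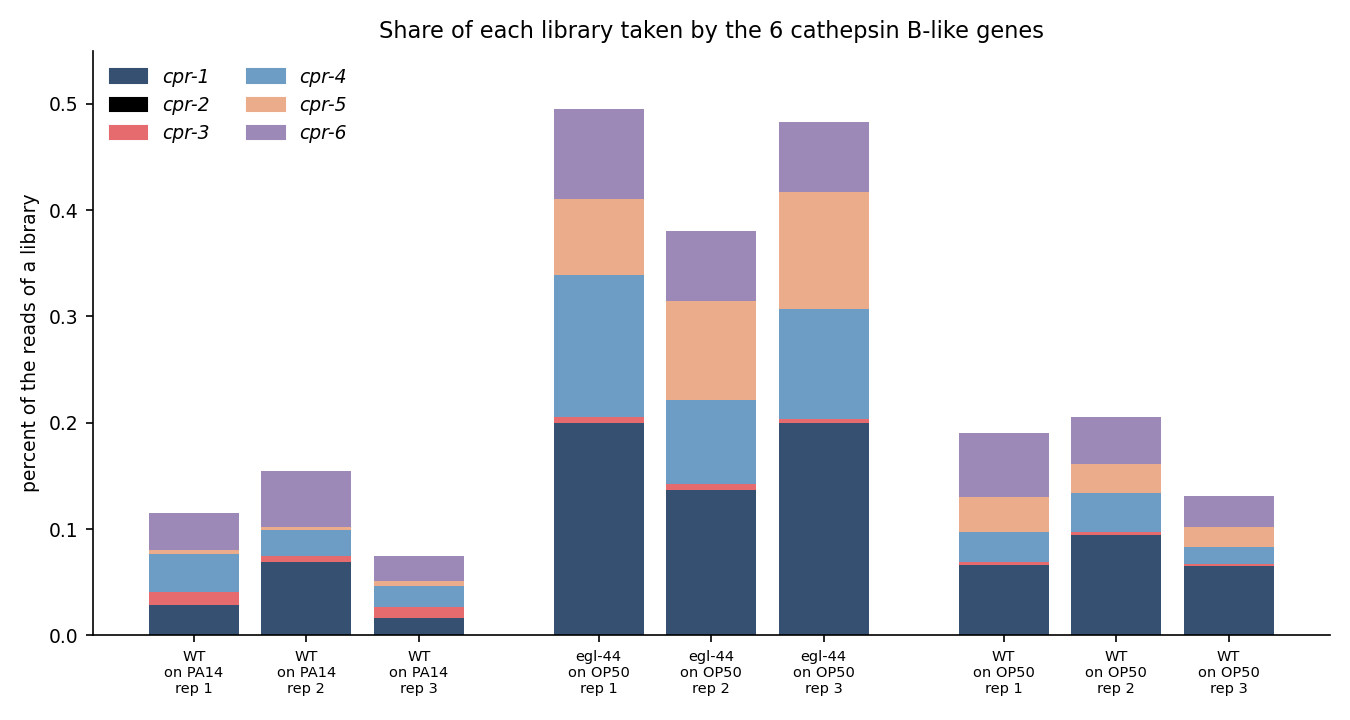
Percent of all reads of a library taken by each of the 6 genes, stacked, with 1 bar per library in WT on PA14, *egl-44* on OP50 and WT on OP50. Bars reach 0.380% to 0.495% in *egl-44* on OP50 and 0.0748% to 0.205% in the WT groups, the *cpr-5* segment is thin in WT on PA14, the *cpr-3* segment is thickest in replicates 1 and 3 of that group, and *cpr-2* is too small to be seen.

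Within the family's summed FPKM, *cpr-5* made up 4.25% ± 2.16 in WT on PA14, 20.4% ± 5.36 in *egl-44* on OP50 and 14.8% ± 2.24 in WT on OP50. The share of *cpr-3* was 8.74% ± 4.93 in WT on PA14, 0.9497% ± 0.255 in *egl-44* on OP50 and 1.35% ± 0.131 in WT on OP50. The largest share belonged to *cpr-1* in each group mean, at 31.9%, 40.3% and 45.0% in the same order of groups. These shares describe how the pool was divided and were not tested.

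The comparison of WT worms on PA14 with WT worms on OP50 asked how the members responded to the pathogen. They did not move together. After 24 h on PA14 *cpr-5* was about 6-fold lower, *cpr-3* was higher and *cpr-1* lower, while *cpr-4* and *cpr-6* did not pass the test. Calls used the limits that the study states, a fold change above 2 with p below 0.05 (taken here without adjustment), from limma on log2(FPKM + 0.5), a scale that understates the change of low genes. Of the 5 members that passed the filter on low values, 1 was called higher and 2 lower, beside 6.99% of all 15760 genes tested called higher and 1.78% called lower. With a Benjamini-Hochberg adjusted p under 0.05 from the same limma fit, 1 member remained, which was lower, beside 0.730% of all genes higher and 0.127% lower. Without replicate 2 of WT on PA14, again 1 member was called higher and 2 lower, beside 4.89% and 1.09% of all genes. The median log2 fold change of the 5 members was -0.29, against 0.25 over all genes tested.

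The gene *cpr-5* had 37.0, 31.0 and 41.4 FPKM in WT on PA14, against 283, 233 and 159 FPKM in WT on OP50. The highest PA14 library was far below the lowest OP50 library, so the groups did not overlap. Among all genes, 6.53% were lower without overlap. The log2 fold change of *cpr-5* was -2.58 (SE 0.24, 95% interval -3.15 to -2.01, limma adjusted p = 0.0115), and the ratio of the means was 0.162. The exact permutation test of the FPKM values gave p = 0.1, the smallest a two-sided test of 3 against 3 libraries can give. Without replicate 2 of WT on PA14, the log2 fold change was -2.47 (limma adjusted p = 0.0298). The call held in 17 of 17 alternative settings, where the log2 fold change ran between -2.83 and -2.39, and the limma adjusted p was under 0.05 in 13 of them.

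The gene *cpr-3*, another gut cathepsin B-like gene, had 95.7, 44.3 and 81.7 FPKM in WT on PA14, against 19.7, 25.9 and 15.9 FPKM in WT on OP50. It was the member with the opposite response, and its groups did not overlap either, where 23.7% of all genes were higher without overlap. The difference was 1.78 on the log2 scale (SE 0.33, 95% interval 0.99 to 2.57, limma adjusted p = 0.0821). The lowest PA14 value came from replicate 2, and without that library the log2 fold change was 2.11 with a limma adjusted p of 0.0344, the only leave-one-out fit in which the adjusted p was under 0.05. The exact permutation p was again 0.1.

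Within single libraries, the ratio of *cpr-5* to *cpr-3* in FPKM was 0.387, 0.700 and 0.506 in WT on PA14. It was 14.6, 20.4 and 33.0 in *egl-44* on OP50 and 14.4, 8.998 and 10.003 in WT on OP50. The ratio was thus under 1 in every PA14 library and 8.998 or more in every other library. A ratio within a library does not depend on how that library was scaled. This pair was chosen after its values were seen, so the ratio is a description and was not tested.

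The gene *cpr-1* had 254, 618 and 143 FPKM in WT on PA14, against 591, 843 and 582 FPKM in WT on OP50. The groups overlapped, since replicate 2 of WT on PA14 was above the lower OP50 libraries. Its log2 fold change was -1.23 (SE 0.50, 95% interval -2.43 to -0.03, limma p = 0.0458, adjusted p = 0.241), and the exact permutation p was 0.3. This call was near the p limit. It was lost when any one library other than replicate 2 of WT on PA14 was left out, with log2 fold changes between -1.32 and -0.74. Among those fits, only that without replicate 3 of WT on PA14 (-0.74) fell short of the fold limit, and the others missed the p limit. The change was larger without replicate 2 of WT on PA14 (log2 fold change -1.79, limma adjusted p = 0.0829).

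For *cpr-4*, whose secreted product has been tied to the bystander effects of radiation in worms, FPKM was 311, 212 and 170 in WT on PA14, against 254, 321 and 146 in WT on OP50. The groups overlapped almost completely. Its log2 fold change was -0.03 with a 95% interval of -0.85 to 0.79 (limma adjusted p = 0.960), and it changed sign in 6 of the alternative settings. That interval leaves room for changes of almost 2-fold either way, so the p does not show that the level was the same.

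For *cpr-6*, FPKM was 274, 415 and 191 in WT on PA14, against 484, 356 and 231 in WT on OP50. Again the groups overlapped. Its log2 fold change was -0.29 with a 95% interval of -1.15 to 0.57 (limma adjusted p = 0.602).

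The least abundant member, *cpr-2*, had 0.0695, 0.480 and 0.125 FPKM in WT on PA14, against 0.0566, 0.197 and 0.0611 FPKM in WT on OP50. These values stood for 1, 8 and 2 reads in WT on PA14 and 1, 3 and 1 reads in WT on OP50. The groups overlapped, and the gene was under the filter of a mean of 0.5 FPKM. In the fit with no filter its log2 fold change was 0.23 (limma adjusted p = 0.564), a value that depends on the 0.5 FPKM added, which is more than the level of the gene in any of these libraries.

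Intestine markers were set beside the members. Of the 7 markers, 0 were called by limma between the WT groups (1, *elt-7*, had an unadjusted p under 0.05, with an adjusted p of 0.244), 2 had positive and 5 negative log2 fold changes, and the median was -0.12. Replicate 2 of WT on PA14 had 123 FPKM of the intestinal actin gene *act-5* and 14.5 FPKM of the peptide transporter gene *pept-1*, the lowest of all 9 libraries for both. Its *ifb-2* (165 FPKM) and *vha-6* (126 FPKM) were also the lowest of the 9. The markers were not all low there, as *elt-7* (22.6 FPKM) was the highest of all 9 libraries and *ges-1* (44.3 FPKM) the highest of the WT libraries. Its *elt-2* (15.5 FPKM) lay between the other WT on PA14 libraries. Of the germline lists, 8 of 8 oocyte and eggshell markers had positive log2 fold changes on PA14 (median 0.76) and 5 of 5 sperm markers negative ones (median -0.60), although 0 of either list were called by limma (1 of each, *chs-1* and *gsp-3*, had an unadjusted p under 0.05). The oocyte and eggshell markers summed to 1588 to 3145 FPKM in WT on PA14, against 892 to 2204 in WT on OP50, and the sperm markers to 286 to 734 FPKM in WT on PA14, against 693 to 845 in WT on OP50. Over all genes tested on PA14, 10637 of 15760 had positive log2 fold changes, with 6.99% called higher and 1.78% lower. The part of the marker lists in the members' values was not tested. In replicate 2 of WT on PA14, *cpr-1* and *cpr-6* were the highest of the WT on PA14 libraries, and *cpr-3* and *cpr-5* the lowest. In whole worms, fewer cells of a type and less RNA per cell cannot be told apart. When each library was scaled to the geometric mean of its 7 intestine markers, a setting chosen after the data were seen, the log2 fold change was -2.40 for *cpr-5*, 1.96 for *cpr-3* and -1.05 for *cpr-1*, of which *cpr-1* was no longer called (limma adjusted p = 0.343).

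**Figure D3:**
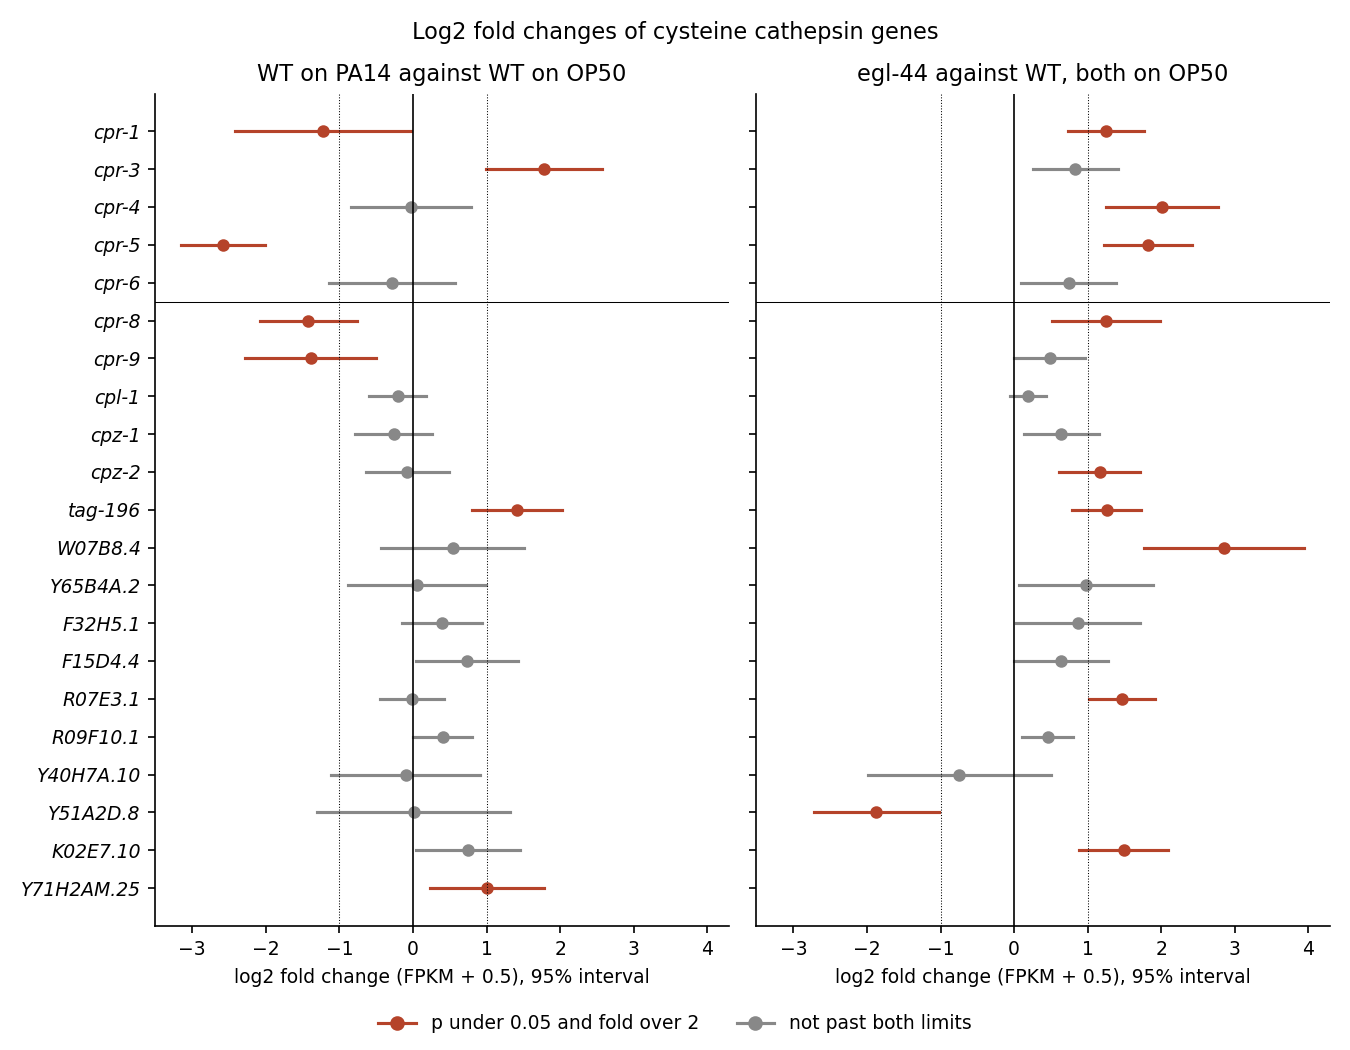
Log2 fold change (FPKM + 0.5) with its 95% interval from limma for the tested cathepsin B-like genes, above the line, and the tested related cysteine cathepsin genes, below it, in WT on PA14 against WT on OP50 (left) and *egl-44* against WT, both on OP50 (right). Red marks genes past both limits (p under 0.05 and a fold change over 2, dotted lines), with *cpr-5* at -2.58 and *cpr-3* at 1.78 on the left and 5 of 5 members above 0 on the right.

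In *egl-44* worms against WT worms, both on OP50, the members moved one way. The 4 abundant genes *cpr-1*, *cpr-4*, *cpr-5* and *cpr-6* and the less abundant *cpr-3* had positive log2 fold changes, and of these *cpr-1*, *cpr-4* and *cpr-5* were called. Of the 5 members tested, 3 were called higher and 0 lower, beside 17.9% of all 15488 genes called higher and 23.4% called lower. With a limma adjusted p under 0.05 and no fold limit, 4 members were higher and 0 lower, beside 26.3% and 31.5% of all genes. Of these, *cpr-3* did not keep an adjusted p under 0.05 in 4 of the 6 limma fits with 1 library left out (adjusted p = 0.0603 without WT on OP50 replicate 1, 0.0571 without WT on OP50 replicate 3, 0.0861 without *egl-44* on OP50 replicate 1 and 0.0696 without *egl-44* on OP50 replicate 2). The groups did not overlap in 5 of 5 tested members, all higher, beside 34.1% of all genes that were higher and 35.6% that were lower without overlap. The median log2 fold change of the 5 was 1.25, against 0.12 over all genes tested. The background was therefore large in this comparison, and the count of 5 genes is small.

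The gene *cpr-4* had 1187, 710 and 921 FPKM in *egl-44* on OP50, against 254, 321 and 146 FPKM in WT on OP50. All *egl-44* libraries were above all WT libraries. In log2 the fold change was 2.01 (SE 0.32, 95% interval 1.25 to 2.77, limma adjusted p = 0.00282), the largest of the family in this comparison.

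The gene *cpr-5* had 614, 801 and 948 FPKM in *egl-44* on OP50, against 283, 233 and 159 FPKM in WT on OP50. Again the groups were apart. In log2 the fold change was 1.82 (SE 0.25, 95% interval 1.22 to 2.42, limma adjusted p = 0.00168). The member with the deepest fall on PA14 was therefore higher in the mutant on OP50, and since both contrasts use the same WT on OP50 libraries, no relation between them was computed.

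The gene *cpr-1* had 1788, 1223 and 1787 FPKM in *egl-44* on OP50, against 591, 843 and 582 FPKM in WT on OP50. Its log2 fold change was 1.25 (SE 0.22, 95% interval 0.74 to 1.76, limma adjusted p = 0.00370). The call was kept in each fit with 1 library left out.

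Both remaining tested members stayed under the 2-fold limit. For *cpr-3*, FPKM was 42.1, 39.3 and 28.7 in *egl-44* on OP50, against 19.7, 25.9 and 15.9 in WT on OP50, with a log2 fold change of 0.83 (SE 0.24, 95% interval 0.26 to 1.41, limma adjusted p = 0.0237). The lowest mutant library was only slightly above the highest WT library. For *cpr-6*, FPKM was 677, 525 and 524 in *egl-44* on OP50, against 484, 356 and 231 in WT on OP50. The log2 fold change of *cpr-6* was 0.74 (SE 0.27, 95% interval 0.09 to 1.39, limma adjusted p = 0.0523), and its groups did not overlap.

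The low gene *cpr-2* had 0.274, 0.574 and 0.735 FPKM in *egl-44* on OP50, against 0.0566, 0.197 and 0.0611 FPKM in WT on OP50. The values stood for 5, 8 and 12 reads in *egl-44* on OP50 and 1, 3 and 1 reads in WT on OP50. The groups did not overlap, but the gene was under the filter. In the fit with no filter its log2 fold change was 0.75 (limma adjusted p = 0.0262), which was short of the fold limit and likewise depends on the 0.5 FPKM added.

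Marker lists of several tissues lay on the same side as the members. Positive log2 fold changes were found for 5 of 5 body wall muscle markers (median 0.55, 0 called), 3 of 3 pharynx muscle markers (median 0.99, 1 called) and 4 of 4 neuron markers (median 1.04, 2 called by limma). Over all genes tested, 8227 of 15488 were positive and 17.9% were called higher. Among the intestine markers, all 7 had positive log2 fold changes (median 0.44), of which the GATA factor gene *elt-2* and the gut esterase gene *ges-1* were called, and they summed to 1738 to 1908 FPKM in *egl-44* on OP50, against 1229 to 1506 FPKM in WT on OP50. Scaled to the geometric mean of these markers, which include *elt-2* and *ges-1* themselves, the log2 fold change was 1.40 for *cpr-4* and 1.22 for *cpr-5*, both still called. It was 0.64 for *cpr-1* (limma adjusted p = 0.0338), 0.24 for *cpr-3* (limma adjusted p = 0.420) and 0.14 for *cpr-6* (limma adjusted p = 0.649), none of them past the fold limit. The part that the marker lists, the low germline markers or the cuticle collagens on either side have in these values was not tested.

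**Figure D4:**
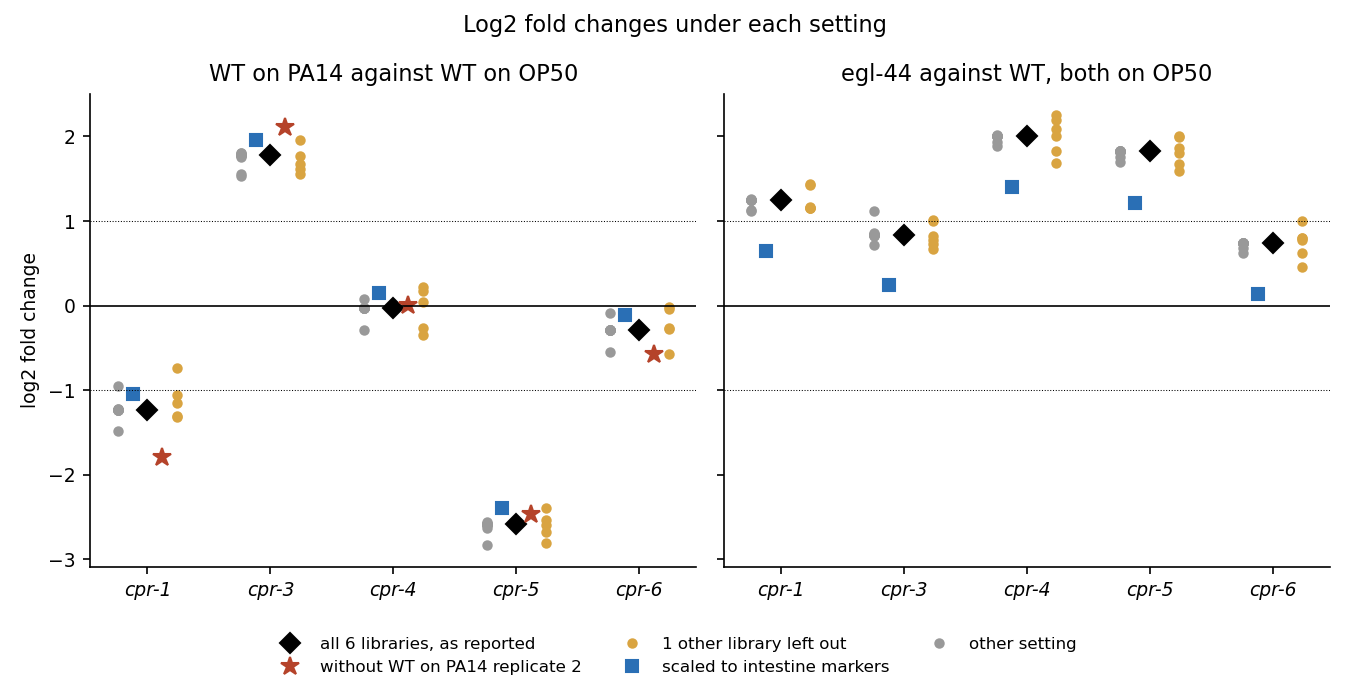
Log2 fold change of the 5 tested members in WT on PA14 against WT on OP50 (left) and *egl-44* against WT on OP50 (right), with 1 symbol per setting and dotted lines at a 2-fold change. The *cpr-5* symbols lie between -2.83 and -2.39 on the left, and on the right scaling to intestine markers (blue) takes *cpr-1* to 0.64, *cpr-3* to 0.24 and *cpr-6* to 0.14.

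The gene *cpr-5* has cathepsin relatives on both sides, shown because the 3 neighbours did not share one pattern. The gene *cpr-8* lies 565 bases away on the opposite strand and *W07B8.4* lies 667 bases away on the same strand, with 0 protein-coding genes between in either case. In WT on PA14, *cpr-8* had 2.36, 2.38 and 2.59 FPKM, against 8.44, 5.33 and 8.88 in WT on OP50 (log2 fold change -1.42, limma adjusted p = 0.0932). *W07B8.4* had 1.88, 1.41 and 2.54 FPKM in WT on PA14, against 1.48, 1.78 and 0.497 in WT on OP50, with overlapping groups and a log2 fold change of 0.54 (limma adjusted p = 0.405). So *cpr-8* was lower on PA14 like *cpr-5*, while *W07B8.4* did not pass the test, and the difference between the genes was not tested.

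In *egl-44* on OP50, *W07B8.4* had 17.4, 6.81 and 12.5 FPKM, with the largest log2 fold change of the related genes (2.85, limma adjusted p = 0.00281). There *cpr-8* had 12.8, 19.7 and 23.9 FPKM and a log2 fold change of 1.25 (limma adjusted p = 0.0138). All 3 neighbours were therefore called higher in the mutant, beside 17.9% of all genes tested. Levels differed by far, as *W07B8.4* and *cpr-8* were under 24 FPKM in all 9 libraries and *cpr-5* reached 948 FPKM. The sources used here do not say how reads matching more than 1 of these related genes were counted.

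**Figure D5:**
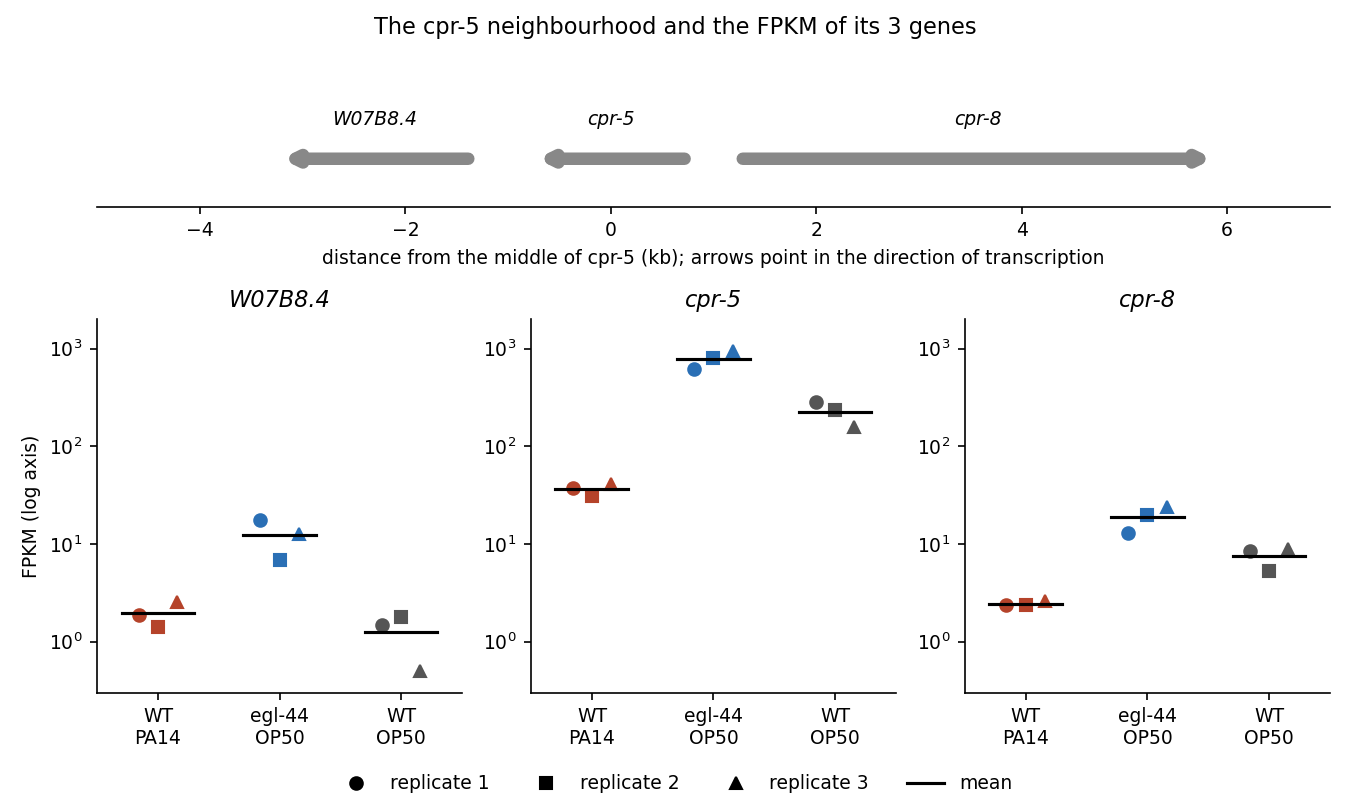
The *cpr-5* neighbourhood drawn to scale as distance from the middle of *cpr-5* (kb), with arrows in the direction of transcription, above the FPKM (log axis) of its 3 genes in WT on PA14, *egl-44* on OP50 and WT on OP50 (1 point per library, line at the mean). Both *cpr-5* and *cpr-8* are lowest in WT on PA14, whereas *W07B8.4* overlaps there with WT on OP50, and all 3 are highest in *egl-44* on OP50.

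Of 20 related cysteine cathepsin genes listed, 19 were in the tables, and 16 were tested on PA14. By limma, 2 of these were called higher and 2 lower, beside 6.99% and 1.78% of all genes. The median log2 fold change of the 16 was 0.03. Besides *cpr-8*, the called lower gene was *cpr-9*, which lies 26296 bases from *cpr-1* on the same strand with 8 protein-coding genes between. It had 584, 197 and 283 FPKM in WT on PA14, against 751, 891 and 881 FPKM in WT on OP50, a log2 fold change of -1.39 (limma adjusted p = 0.164), and the groups did not overlap. Of the tested cysteine cathepsin genes, *cpr-5*, *cpr-8* and *cpr-9* were called lower without overlap. Of all genes, 1.78% were called lower and 6.53% were lower without overlap, and the share that met both rules was not computed. Only *cpr-5* of these had a limma adjusted p under 0.05. The genes called higher were *tag-196*, which encodes a cathepsin F relative (log2 fold change 1.41, limma adjusted p = 0.0789), and *Y71H2AM.25* (1.01, adjusted p = 0.203). Of these, *tag-196* had 62.5, 114 and 68.1 FPKM in WT on PA14, against 26.8, 33.7 and 27.9 in WT on OP50. The other, *Y71H2AM.25*, rested on 77 reads over the WT on PA14 libraries, against 29 over the WT on OP50 libraries.

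In *egl-44* on OP50, 15 of the related genes were tested, and 6 were called higher and 1 lower, beside 17.9% and 23.4% of all genes. The median log2 fold change of the 15 was 0.87. Besides *W07B8.4* and *cpr-8*, the genes called higher were *K02E7.10* (1.49), *R07E3.1* (1.47), *tag-196* (1.26) and the cathepsin Z-like *cpz-2* (1.16). Of these, *K02E7.10* rested on 98 reads over the *egl-44* on OP50 libraries, against 22 over the WT on OP50 libraries. *R07E3.1* had 169, 229 and 197 FPKM in *egl-44* on OP50, against 85.6, 72.1 and 57.8 in WT on OP50. The gene called lower was *Y51A2D.8* (-1.87), which had at most 5 reads in a mutant library. The cathepsin L gene *cpl-1*, which is needed in the worm for embryo development, was not called in either comparison, with log2 fold changes of -0.21 on PA14 and 0.19 in *egl-44*.

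The cystatin genes did not pass the limits in either comparison. For *cpi-1* the log2 fold change was -0.01 on PA14, and in *egl-44* it was lower by just under 2-fold (limma adjusted p = 0.0476). That is 115, 81.5 and 152 FPKM in *egl-44* on OP50, against 166, 186 and 372 FPKM in WT on OP50, without overlap and opposite in direction to the members. For *cpi-2* the log2 fold change was 0.40 on PA14 and 0.29 in *egl-44*.

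Aspartic proteases, cathepsin D-like enzymes, were set beside the members as another protease family. All 17 genes were found, and 12 were tested on PA14, where 0 were called higher and 1 lower (limma), beside 6.99% and 1.78% of all genes. That gene, *asp-13*, had 20.1, 23.8 and 9.38 FPKM in WT on PA14, against 85.9, 44.8 and 54.3 FPKM in WT on OP50 (log2 fold change -1.81, limma adjusted p = 0.116). In *egl-44* on OP50, 11 were tested, with *asp-13* called higher (1.01) and *asp-12* (-2.17) and *asp-14* (-1.08) called lower, beside 17.9% and 23.4% of all genes. The groups overlapped for *asp-13* (83.5 to 153 FPKM in *egl-44* on OP50, against 44.8 to 85.9 in WT on OP50). They also overlapped for *asp-12* (45.1 to 240 FPKM, against 163 to 598), but not for *asp-14* (107 to 146 FPKM, against 185 to 438). The median log2 fold changes of the family were -0.23 on PA14 and 0.08 in *egl-44*, against -0.29 and 1.25 for the cathepsin B-like members.

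Regulators and parts of the lysosome were counted from the same limma fits. On PA14, 0 of 3 gut regulator genes and 0 of 6 lysosome genes passed both limits, beside 6.99% of all genes called higher and 1.78% lower. At an unadjusted limma p under 0.05, *elt-7*, *hlh-30*, *lmp-1* and *glo-1* were higher by less than 2-fold. In *egl-44* on OP50, *elt-2* (log2 fold change 1.27) and *hlh-30* (1.12), the worm gene for the lysosome regulator TFEB, were called higher. Of the lysosome genes, the membrane protein gene *lmp-1* (1.19) and the Rab gene *glo-1* (1.79) were called higher, and the mucolipin gene *cup-5* (-1.05) lower. Thus the *egl-44* libraries had some lysosome genes on each side, whereas the tested members had positive values only. Positive values were not particular to the members, as 13 of 15 related cysteine cathepsin genes had them too. Over all genes tested, 8227 of 15488 were positive, with 17.9% called higher and 23.4% lower.

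Across the 9 libraries, the levels of *cpr-1*, *cpr-4*, *cpr-5* and *cpr-6* varied together, with Pearson r of log2(FPKM + 0.5) between 0.71 and 0.86 for each pair. The gene *cpr-3* did not follow them, with r between -0.53 and 0.04. The points share 3 groups and their libraries, so the values describe these 9 libraries and have no p. Likeness was searched over 11045 genes that averaged 5 FPKM or more. The highest r among so many genes over 9 libraries is high by selection, so it shows no shared regulation. The gene most like *cpr-1* was *nuc-1*, which encodes a lysosomal DNase (r = 0.99), followed by *rnh-1.0* and *fust-1* (0.97 each). Those most like *cpr-3* were *C12D12.1* (0.97), *T25D10.1* (0.96) and *dod-19* (0.96).

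For *cpr-4*, the nearest patterns were *txt-14* (0.98), *gst-42* (0.97), a glutathione transferase family gene, and *K08E7.8* (0.96). For *cpr-5* they were *F45H10.2* (0.98), the ribosomal protein gene *rpl-3* (0.98) and the cytochrome c oxidase gene *cox-6C* (0.98), and for *cpr-6* *cest-3* (0.96), the C-type lectin gene *clec-61* (0.94) and *T24D3.2* (0.94). No gene appeared among the nearest 3 of more than 1 member.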

How the data were processed

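RNA from 9 whole-worm samples in 3 groups, grouped by their labels, was sequenced, and the authors deposited 1 table of FPKM values per sample (fragments scaled to gene length and library reads). The submitters' processing notes name Bowtie2 2.2.3, TopHat2 2.0.12, HTSeq 0.6.1, DESeq 1.18.0 and WBcel235, with no roles; the sources used here give neither annotation, strand setting nor the treatment of shared reads. Symbols came from a reference table, for 19587 of 20541 IDs, and positions from the WBcel235 annotation. Library totals and reads were recovered from the steps of the FPKM values, which gave whole reads within 0.01 for all 19711 genes above 0. Genes averaging 0.5 FPKM or more in the 6 libraries of a comparison were fitted on log2(FPKM + 0.5) with limma 3.58.1 (empirical Bayes with trend) in R 4.3.3, and Benjamini-Hochberg adjustment ran over all genes tested. The script was tested on simulated data. Exact permutation tests used scipy 1.17.1 in Python 3.11.15. Nothing states that replicates came from separate cultures, so p-values measure the spread between these samples, which may be technical. All 6 members were named, with each related gene that was called and any gene of the lists with 12 genes or fewer. The related list held 20 genes after aliases were merged, and 1 of them, *cpr-10*, was not matched. Likeness named the 3 genes with the highest r. The members and lists were chosen with earlier results of these data known. Alternatives changed the pseudocount, filter, scaling, model, call rule and libraries. Promoter and protein sequences were not analysed here. The replicate numbers were not taken to pair samples.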

Additional observations from a re-analysis of the deposited data

How the results depend on the processing

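Direction and call held in most alternatives, and the exceptions concerned *cpr-1*, *cpr-3* and *cpr-4*, with *cpr-5* and *cpr-6* added where the call was the adjusted p. The limma adjusted p of *cpr-5* on PA14 was under 0.05 in 13 of 17 alternatives (range 0.00179 to 0.0959). On PA14, 2 members were called lower; quantile normalization, scaling to intestine markers (chosen after seeing the data) and the adjusted p without a fold limit each gave 1, and leaving out 1 library gave 1 to 2, with 1 whenever the library left out was any WT on OP50 replicate or WT on PA14 replicate 1 or 3. The call that was lost was *cpr-1* (-0.95 with quantile normalization, -1.05 with intestine scaling). The adjusted p without a fold limit gave 0 members higher on PA14, against 1. The log2 fold change of *cpr-4* on PA14, -0.03, turned to 0.0821 with quantile normalization and 0.15 with intestine scaling, and ran between -0.35 and 0.22 with 1 library left out (above 0 without WT on OP50 replicate 1 or 2 or WT on PA14 replicate 2 or 3); the cause was not tested. In *egl-44*, *cpr-3* passed the fold limit with quantile normalization (1.12) and without WT on OP50 replicate 2 (1.01), and *cpr-1* lost it with intestine scaling (0.64). The limma adjusted p of *cpr-6* in *egl-44*, 0.0523, was under 0.05 in 3 of 17 alternatives (0.0279 with the replicate block, 0.0431 with voom on recovered reads and 0.0187 without WT on OP50 replicate 1, with a range of 0.0187 to 0.649), and that of *cpr-3* in 12 of 17 (range 0.00759 to 0.420). Median-of-ratios scaling took the median log2 fold change of all genes on PA14 to 0.01, against 0.25, and the share of called genes that were higher to 52.0%, against 79.7%; quantile normalization gave 43.9%. In *egl-44*, 43.4% of called genes were higher, against 36.9% with median-of-ratios scaling, 59.2% with quantile normalization and 16.3% with intestine scaling, where the median of all genes was -0.44. Same-numbered samples did not deviate together in the PA14 comparison (r = -0.19, -0.24 and -0.55) and hardly did in *egl-44* (0.08, 0.07 and 0.09). Deviations from a mean of 3 libraries are tied to each other, so these values cannot decide whether the numbers pair samples. A replicate block kept 1 member higher and 2 lower on PA14 and 3 higher in *egl-44*, with a limma adjusted p of 0.0959 for *cpr-5* on PA14 and 3 genes higher and 0 lower at an adjusted p under 0.05 among all genes, against 115 and 20. Among the members, depth limits only *cpr-2*, at 1 to 12 reads a library.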
